A study of Mus musculus with 4 samples.

Results

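The cadherin superfamily genes described here were the cadherins proper (Cdh), the giant Fat and Dachsous (Dchs) cadherins, the Celsr receptors and the protocadherins that lie outside the clustered arrays. They were taken by gene name from the m6A peak tables, as the names that begin with Cdh, Pcdh, Celsr, Fat or Dchs followed by a number. No measured value entered this naming rule, but the members were chosen with earlier results of these data known. By this rule the list of peaks from injured mice held 184 member peaks in 38 genes of its 33556 peaks in 12408 genes. The list from sham mice held 195 member peaks in 40 genes of its 34406 peaks in 12907 genes. Of the 44 protein-coding genes with such a name in the RefSeq annotation, 40 had at least 1 peak, and Cdh16, Cdh17, Cdh26 and Fat2 had none in either list.

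Male C57BL/6J mice of 6 to 8 weeks of age gave the tissue, spinal cord taken 7 days after surgery. In the CCI (chronic constriction injury) group, silk ligatures were tied loosely around the sciatic nerve, a model of neuropathic pain. The sham group underwent the same operation with no ligature. MeRIP-seq sets the RNA fragments captured by an antibody against N6-methyladenosine (m6A), the IP library, against the fragments before capture, the input library. Each of the 2 surgery groups had 1 IP and 1 input library. The number of mice behind a library is not given in the sources used here. With 1 library of a kind per group no test between CCI and sham exists, so no p-value is given and each difference describes these libraries only. In a whole cord, fewer cells of a type, less RNA per cell and less m6A per transcript also cannot be told apart from a peak list alone.

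Cadherins are calcium-dependent adhesion proteins that join the membranes of neighbouring cells. Classical cadherins hold synapses and glial contacts together through catenins and the actin cytoskeleton, Fat and Dachsous proteins bind each other across cells, Celsr proteins carry planar polarity, and protocadherins adhere weakly and help to sort neurites and synapses. m6A is the most abundant internal modification of mRNA, is typically enriched near stop codons and in long internal exons, and is read by proteins that govern decay and translation of the mRNA. MMP24, the protease at the centre of the study, cuts N-cadherin, the product of Cdh2.

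The lists carried peaks of all 4 marker genes of neurons, of astrocytes, of oligodendrocytes and of microglia, and of all 3 endothelial markers, in both groups. All 3 caudal Hox genes had peaks in both lists, as the labelled tissue would have, while 1 of 3 forebrain markers (Neurod6) had them. None of the 3 skeletal muscle markers had a peak. Of the 3 markers of Schwann cells and nerve roots, 2 had peaks in both lists. Of the 4 markers of sensory ganglion neurons, none had a peak in CCI and 2 (Scn10a and Mrgprd) had one in sham. Peak presence was the only measure of a marker here, and the part of other cells in the results below was not tested.

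For members whose transcript start lay under a peak in both lists, the first bases of the transcript are among those the peaks covered at the 5′ end. Of the 40 members with a peak, 27 had a start in the RefSeq promoter table (GRCm38.p6), and in 5 of them the first 30 transcribed bases lay wholly inside a peak of both lists. These bases are shown 5′ to 3′, with capitals for each match to the m6A consensus DRACH, in which AC follows A or G, any base but C stands before that, and any base but G comes after.
Cdh22 (chr2:165234708-165234737, minus strand): acgcacactccctcgctctctcgctcctcc
Fat4 (chr3:38886940-38886969, plus strand): ggttcctggAAACTaGGACCatGAACTtgg
Pcdh7 (chr5:57718081-57718110, plus strand): agatcccactgctccaacacgcgggccgaa
Pcdh9 (chr14:93890650-93890679, minus strand): agagagaggagagagaggagagggagaagg
Pcdh10 (chr3:45378398-45378427, plus strand): cggagctcagAAACTgccagccgagatcac

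The Fat4 start held 3 matches that do not overlap each other, the Pcdh10 start held 1, and the starts of Cdh22, Pcdh7 and Pcdh9 held none in these 30 bases. The peaks over the Fat4 start, with a fold enrichment of 10.4 in CCI and 6.31 in sham, also lay over another gene, C230034O21Rik. Only the transcribed strand was searched. Over all 32851 starts of the table, 37.5% had a match in the first 30 bases, against 8 of the 30 member starts (26.7%). A match is a description of letters and not a mapped site, and the rest of each peak was not read. The peaks over these starts were strong in Pcdh9, with a fold enrichment of IP over input of 50.6 in CCI and 65.6 in sham. Its border fell on the first transcribed base in both lists. In Pcdh10 the peak also began at the first base, with 8.72 in CCI and 5.06 in sham. In Cdh22, Fat4 and Pcdh7 the peaks of both lists also reached upstream of the listed start. m6A antibodies also bind m6Am, a related mark that can sit beside the cap, and these libraries do not separate the marks.

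Member peaks lay less often in 3′-UTRs and more often in exons outside the UTRs than peaks at large. By the authors' annotation, 55 of the 184 CCI member peaks (29.9%, 95% Wilson interval 23.7 to 36.9%, counting error only) lay in a 3′-UTR, against 49.9% of the 33372 CCI peaks of other genes (49.4 to 50.5%). In sham the shares were 60 of 195 (30.8%, 24.7 to 37.6%) and 49.0% (48.4 to 49.5%). Exons outside the UTRs held 100 of the CCI member peaks (54.3%, 47.1 to 61.4%) and 104 of the sham member peaks (53.3%, 46.3 to 60.2%), against 35.4% and 35.0% of the peaks of other genes. The 5′-UTR shares, 15.8% in CCI and 15.9% in sham, had intervals that included the shares of other genes, 14.7% and 16.1%. Peaks of 1 gene are not independent, so these intervals are too narrow.

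The Fat and Dachsous genes carried most of the excess in exons and a large part of the deficit in 3′-UTRs. In 3′-UTRs lay 7 of their 61 CCI peaks (11.5%, 5.7 to 21.8%) and 6 of their 65 sham peaks (9.2%, 4.3 to 18.7%). Of their 61 CCI peaks 51 (83.6%, 72.4 to 90.8%) lay in exons outside the UTRs, and of their 65 sham peaks 58 (89.2%, 79.4 to 94.7%). Celsr peaks followed with 10 of 16 in CCI and 10 of 15 in sham. Protocadherins, whose ectodomain is typically encoded by a large first coding exon, had 25 of 56 in CCI and 26 of 63 in sham. The type I and type II cadherins, whose ectodomain is spread over many short exons, had 14 of 44 in CCI (31.8%, 20.0 to 46.6%) and 10 of 43 in sham (23.3%, 13.2 to 37.7%). Without the Fat and Dachsous genes the exon share of the remaining members was 39.8% in CCI (31.6 to 48.7%) and 35.4% in sham (27.7 to 43.9%), intervals that include the shares of other genes. Their 3′-UTR share stayed lower, at 39.0% (30.9 to 47.9%) and 41.5% (33.4 to 50.1%), but in sham this interval reached that of the other genes.

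**Figure D1:**
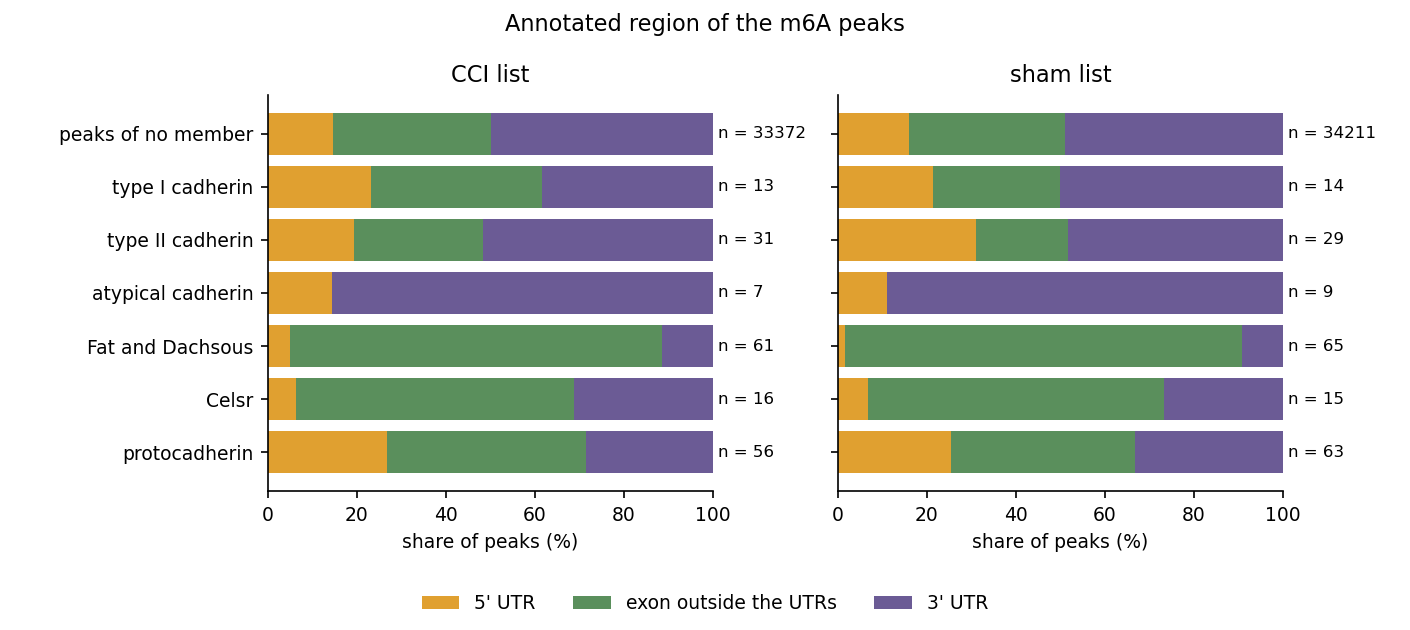
Share of m6A peaks (%, horizontal axis) in the 5′-UTR, in exons outside the UTRs and in the 3′-UTR for each class of member gene and for all genes that are not members, in the CCI list and in the sham list, with the number of peaks beside each bar. The exon part fills 83.6% of the Fat and Dachsous bar in CCI and 89.2% in sham, against 35.4% and 35.0% for the other genes.

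The median over members was 4 peaks per gene in either list, against 2 over all genes with a peak, but the classes differed. The 18 type I and type II cadherins had a median of 2 in either list, the same as all genes. The Fat and Dachsous genes had a median of 15 in CCI and 12 in sham, and the protocadherins 5.5 and 5. For the Celsr genes it was 4 and 5, and for the atypical cadherins 3.5 and 4.5. The 5 members with the most peaks over both lists were Fat4 (19 in CCI and 24 in sham), Fat1 (16 and 17), Dchs1 (15 and 12), Pcdh10 (8 and 10) and Fat3 (9 and 8). In Fat4 and Dchs1 some peaks of the same list overlap, so a count of peaks is not a count of distinct places. At the other end, Cdh1, Cdh9, Cdh19 and Cdh24 had 1 peak in each list. The strength of the peaks was like that of the lists as a whole, with a median fold enrichment of 6.36 in CCI (middle 50% of peaks from 3.63 to 13.8) and 6.42 in sham (3.61 to 15.1), against 5.73 and 5.70 over all peaks.

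**Figure D2:**
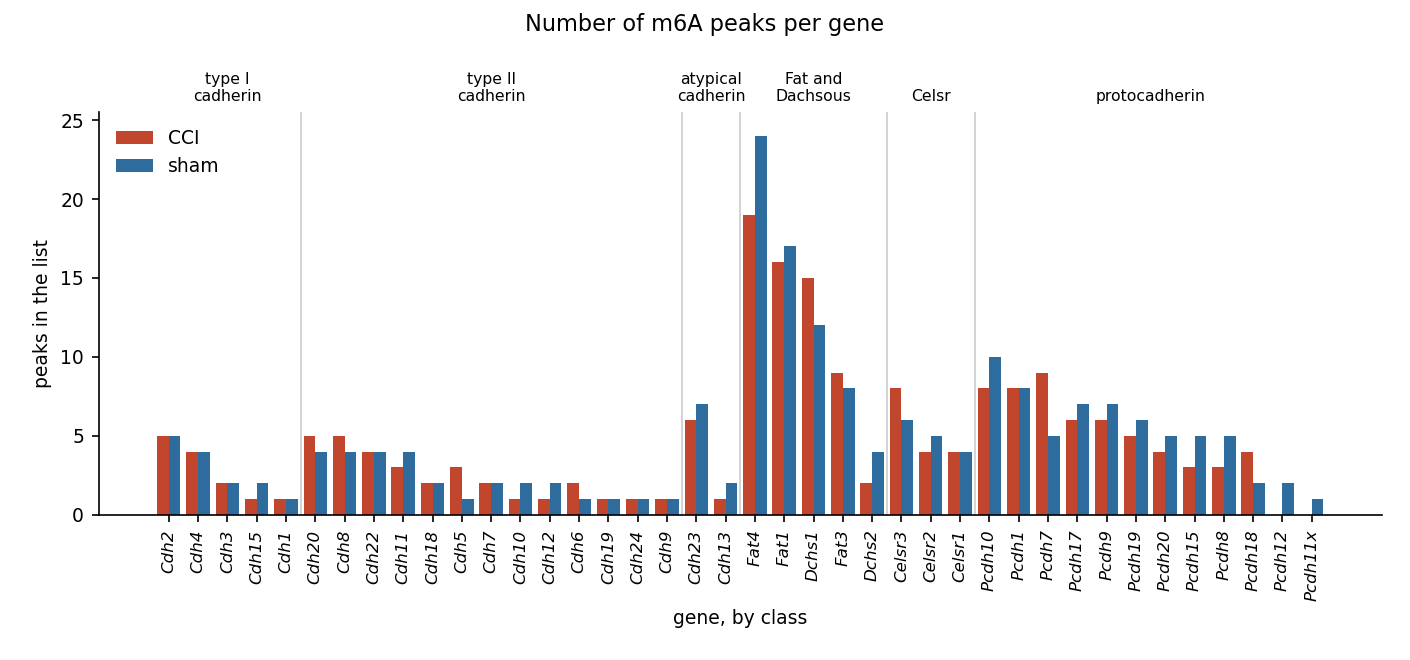
Number of m6A peaks (vertical axis) of each member gene in the CCI list and in the sham list, with the genes grouped by class. Fat4, Fat1 and Dchs1 stand above all other members, and Pcdh12 and Pcdh11x have bars in sham only.

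For the comparison of the groups, a CCI and a sham peak were paired when they shared exonic bases and each was the other's best partner. This gave 149 member pairs in 37 genes. A further 2 pairs joined a member peak to a peak of another gene name and were left out. The log2 ratio of fold enrichment, CCI over sham, had a median of 0.03 in them (middle 50% from -0.39 to 0.54), as it was over all 27380 pairs (0.03, middle 50% from -0.37 to 0.43). Of the member pairs 75 were higher and 72 lower in CCI. At least 2-fold higher in CCI were 18 pairs, or 12.1%, against 8.59% of all pairs. At least 2-fold lower were 10, or 6.71%, against 7.25% of all pairs. These shares differ little from those of genes at large.

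Peak strength moved with these counts. The authors' log10 false discovery rate (FDR) was -10 or lower in both lists for 82 of the member pairs, and of these 8 were at least 2-fold higher and 4 at least 2-fold lower, where all such pairs had 6.86% higher and 5.34% lower. Of the 28 member pairs past 2-fold, 16 were weaker than this in at least 1 list, as were 51 of the 121 within 2-fold. Over all pairs the counts were 2206 of 4338 past 2-fold and 7698 of 23042 within it. Fold enrichment also took recurrent values among weak peaks. Values shared by at least 100 peaks of a list were carried by 37 of the 184 CCI member peaks (20.1%) and 34 of the 195 sham member peaks (17.4%). The shares over all peaks were 13.5% in CCI and 16.4% in sham. Of the member peaks with such values, 29 in CCI and 28 in sham were among the weaker peaks. The commonest value was 10.4 in CCI, in 268 peaks, and 12.8 in sham, in 396 peaks. Read counts are not part of the tables, which leaves the depth and the error of a single fold enrichment unknown.

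**Figure D3:**
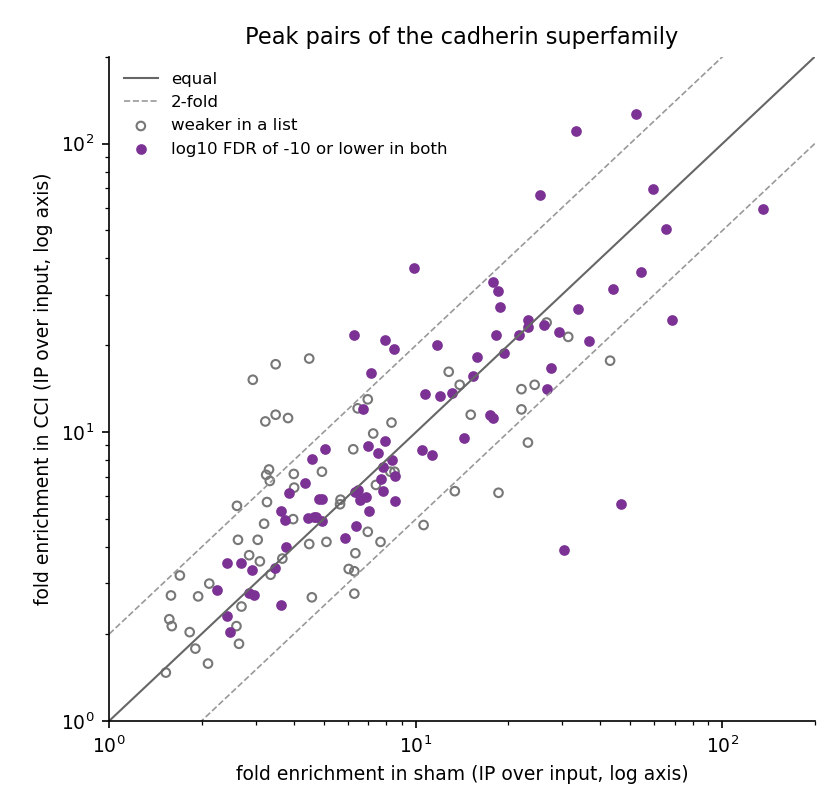
Fold enrichment of IP over input in sham (horizontal, log axis) and in CCI (vertical, log axis) for the 149 member pairs, with a solid line at equal values and dashed lines at a 2-fold difference. Filled points have a log10 FDR of -10 or lower in both lists, and 12 of these 82 pairs lie past a dashed line.

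In the pairs that follow, values for CCI and sham are fold enrichments of IP over input, and a value in parentheses after them, or the place of a pair, is the log2 ratio of CCI over sham. Among the type I cadherins, which bind beta-catenin and join like cells, Cdh2 had 5 peaks in each list, and all were paired. Its 3′-UTR peaks (chromosome 18, 16588877 to 16589147 and 16590076 to 16590286, with the same borders in both lists) had a fold enrichment of 21.7 in CCI and 21.7 in sham for the first, and 2.73 and 2.97 for the second. The peak annotated to exon 14 of 16 had 2.83 in CCI and 2.24 in sham. At the 5′-UTR, neighbouring peaks went opposite ways, with 30.9 in CCI and 18.6 in sham for one (log2 ratio 0.73) and 14.6 and 24.4 for the other (-0.74). The other, of 121 bases, was weak, with log10 FDR of -3.29 in CCI and -5.13 in sham, against -54.1 and -61.5 for the first. No Cdh2 pair reached 2-fold.

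Cdh3, which encodes P-cadherin, was higher in CCI in both of its pairs. Its peak annotated to exon 15 of 16 (chromosome 8, 106552892 to 106555389, 270 exonic bases) had 18.0 in CCI and 4.49 in sham, a log2 ratio of 2.00, the third largest among members. The 3′-UTR peak next to it, of 359 exonic bases in both lists, had 66.2 and 25.4 (1.38), with log10 FDR of -39.2 and -53.3. Cdh3 was the only member with more than 1 pair and all of them at least 2-fold higher in CCI. Cdh15, the M-cadherin of muscle, had 1 pair, 6.78 in CCI and 3.34 in sham, both weak (log10 FDR -2.87 and -2.63). Cdh4, or R-cadherin, went the other way without reaching 2-fold, and all 3 of its pairs were lower in CCI, the strongest with 35.9 against 54.1. Cdh1, the E-cadherin of epithelia, had a peak of 2.95 in CCI and another of 2.56 in sham at different places.

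Type II cadherins mark groups of neurons and other cells by their combinations. Their 25 pairs held 2 that were at least 2-fold higher (8.0%, beside 8.59% of all pairs) and 1 that was at least 2-fold lower (4.0%, beside 7.25%). Cdh22 held the largest ratio of all member pairs, at the transcript start shown above. The peak spanned chr2:165234614-165234853 in CCI with 15.2 (log10 FDR -26.6) and 165234614 to 165234823 in sham with 2.94 (-6.59), a log2 ratio of 2.37. The other 3 Cdh22 pairs were lower in CCI, and the largest, in the 3′-UTR over 866 exonic bases in CCI, had 14.1 against 26.7 (-0.92). The 5′ and 3′ ends of this transcript therefore stood on opposite sides of 0.

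Cdh24 had the lowest ratio of all member pairs. Its only peak, annotated to exon 1 of 1 of a transcript (chromosome 14, 54632357 to 54632612 in CCI and 227 exonic bases in sham), had 5.66 in CCI and 46.5 in sham, a log2 ratio of -3.04. The borders nearly coincide and the log10 FDR was close in both lists, -10.3 and -11.5, although the fold enrichment was not. Each list also held a peak of another gene name, Gm20726, over the same bases, with 10.1 in CCI and 37.8 in sham. Cdh20 had the second pair past 2-fold upward, at its 5′-UTR, with 5.56 in CCI and 2.61 in sham. It was weak in both lists (log10 FDR -4.55 and -2.44).

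The type II members best known outside neurons differed little between the lists. Cdh5, the VE-cadherin of endothelial junctions, had a 3′-UTR pair with 26.8 in CCI and 33.7 in sham. The CCI list also held a further 3′-UTR peak of Cdh5 with no sham partner (2.44), which had the lowest FDR of all member peaks alone in CCI, a log10 value of -14.1. Cdh11, best known from mesenchymal cells, was lower in CCI in all 3 of its pairs, the strongest with 6.25 against 7.84. Cdh19, of the Schwann cell lineage, had 1 pair with a log2 ratio of 0.16. The single pairs of Cdh5, Cdh6, Cdh7, Cdh9, Cdh10 and Cdh12 lay between -0.60 and 0.20. Cdh18 had pairs at -0.29 and 0.78, and the 4 pairs of Cdh8 ran from -0.04 to 0.68.

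Of the atypical cadherins, Cdh13 encodes T-cadherin, which is held to the membrane by a lipid anchor. Its pair had 13.6 in CCI and 10.7 in sham. Cdh23 encodes one of the tip-link proteins of inner ear hair cells. In its name the CCI list had 6 peaks and the sham list 7, but 5 of each lay over Vsir, an immune receptor gene whose span (chromosome 10, 60346851 to 60430294) sits inside that of Cdh23 (60302748 to 60696513). The deposited tables give such peaks to Cdh23, and the sources used here do not say whether strand was used in the assignment. The pairs at least 2-fold lower in CCI were 9.21 against 23.2 outside Vsir (log2 ratio -1.33) and 17.7 against 43.0 over Vsir (-1.28). Both were weak in CCI, with log10 FDR of -7.17 and -9.83. The 3 other pairs, all over Vsir, lay between 0.19 and 0.50.

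The Fat and Dachsous genes gave 51 of the 149 pairs. Their median log2 ratio was 0.33, with 31 pairs higher and 20 lower in CCI. At least 2-fold higher were 9 (17.6%, beside 8.59% of all pairs), and at least 2-fold lower were 4 (7.84%, beside 7.25%). Only 36.1% of the CCI peaks and 41.5% of the sham peaks of this class had a log10 FDR of -10 or lower, against 60.3% and 61.2% of all peaks, so its values rest on weaker peaks than those of the lists as a whole.

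Fat4, the receptor for Dchs1, had 15 pairs. Of these, 6 were among the 18 at least 2-fold higher and 1 was among the 10 at least 2-fold lower. The shares over all pairs were 8.59% higher and 7.25% lower. The Fat4 peaks crowded into exon 1 and exon 9 of 17. The Fat4 peak with the lowest FDR lay elsewhere, in the 3′-UTR in sham, with 33.3 over 929 exonic bases (log10 FDR -214). It shared exonic bases with a CCI peak but was in no member pair, so the Fat4 ratios leave it out. Exon 9 held 8 CCI peaks over 2614 bases and 9 sham peaks over 2345 bases, between 38979842 and 38983616 on chromosome 3. Of the 8 pairs there 5 were higher in CCI and 3 lower, from -1.59 to 1.55 on the log2 scale. The lowest had 6.17 in CCI and 18.6 in sham, while a pair less than a kilobase downstream had 20.8 and 7.94 (1.39). Within 1 exon, the ratio therefore changed sign between neighbouring peaks.

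In exon 1 of Fat4 the sham list held 12 peaks over 1723 bases and the CCI list 7 over 1174 bases. Some of these sham peaks overlap each other, as do those from 38887958 and 38887990 and those from 38888108 and 38888110. The sham count is therefore higher than the number of distinct places. The pair with the second largest ratio of all members lay in this exon, with 17.2 in CCI and 3.49 in sham (2.30). The log10 FDR was -5.11 and -2.35, so both peaks were weak. The strongest peak of the exon, 44.2 in sham (chr3:38887599-38887899, log10 FDR -10.5), had no partner in CCI. A second sham peak of nearly the same span, cut to 180 exonic bases under another transcript, had 16.3, so the value depends on the transcript used. In exon 5 a pair had 37.0 in CCI and 9.88 in sham (1.90), with log10 FDR of -10.5 and -10.2, the largest member ratio with both peaks at -10 or lower.

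**Figure D4:**
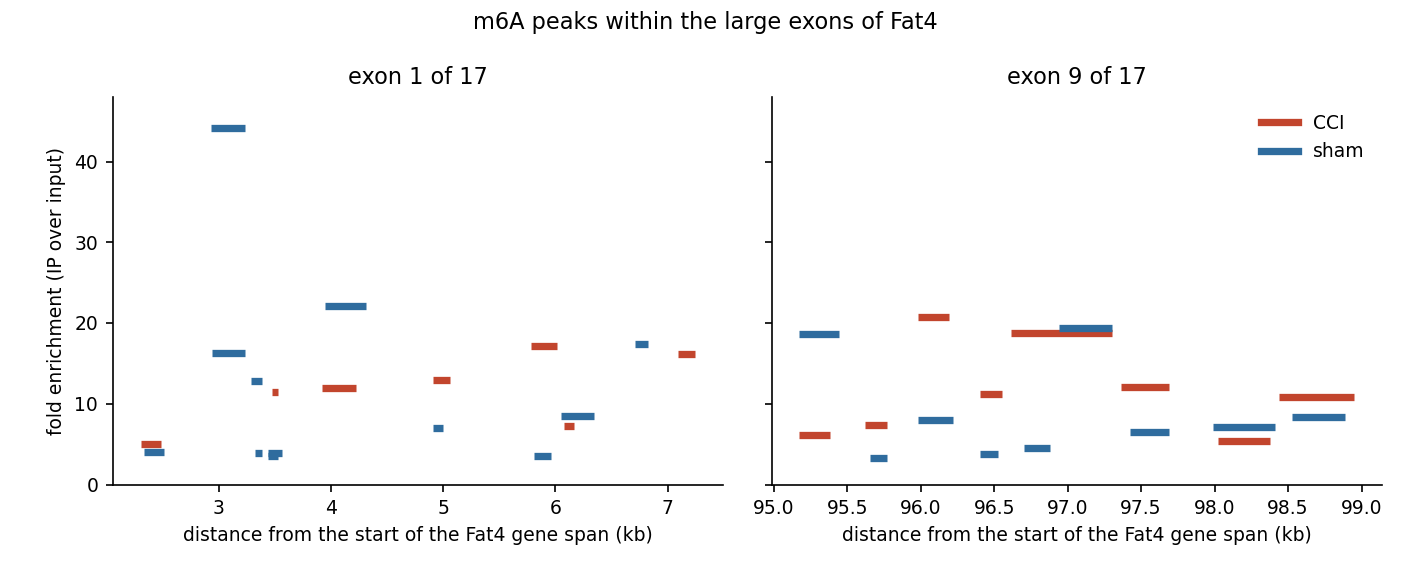
Fold enrichment of IP over input (vertical axis) of the m6A peaks in exon 1 and exon 9 of Fat4 against the distance from the start of the Fat4 gene span (kb), each bar covering 1 peak from end to end in CCI or in sham. In exon 9 both lists hold peaks along the whole covered stretch, and which list is higher changes from peak to peak.

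Fat1 resembled Fat4 in layout and not in spread. Its peaks lay mostly in exon 2 and exon 10 of 27, and none of its 16 pairs reached 2-fold, with log2 ratios from -0.77 to 0.53. All 4 pairs with both peaks in exon 2 were lower in CCI (median -0.43), and another, annotated to exon 2 in sham and to the 5′-UTR in CCI, was higher (0.48), while 5 of the 6 pairs of exon 10 were higher (median 0.40). Fat3 had 1 of its 7 pairs at least 2-fold higher and 2 at least 2-fold lower. In its exon 10 of 26, 1 pair had 10.9 in CCI and 3.23 in sham (1.75), over 91 and 61 bases. Both of these peaks were weak, with log10 FDR of -2.17 and -2.22. Another pair had 4.77 over 151 bases in CCI and 10.6 over 361 bases in sham (-1.15), with log10 FDR of -4.84 and -13.2.

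Dchs1, the ligand of Fat4, had 8 of 11 pairs higher in CCI and 2 at least 2-fold higher. The larger, in exon 14 of 21 (chromosome 7, 105758612 to 105759002), had 21.8 in CCI and 6.29 in sham, a log2 ratio of 1.79, with log10 FDR of -23.5 and -11.2. The smaller had 7.12 and 3.25 (1.13) and was weak, with log10 FDR of -5.98 and -2.53. Its peaks overlap those of a further pair within 2-fold (0.81), so the overlapping pairs are not separate places. In the last exon of Dchs1, 3 pairs lay between -0.68 and 0.55. The pairs of Dchs2 lay at -1.10 and 0.45.

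Celsr1, Celsr2 and Celsr3, adhesion receptors of the planar polarity core, were the only class with no pair past 2-fold. They gave 11 pairs, and the plain (not log2) ratios of CCI over sham ran from 0.564 to 1.48. Celsr2 had a 3′-UTR peak with 31.3 in CCI and 43.9 in sham. Celsr3, the neuronal member, had a pair over exon 1 of 36 with 24.4 in CCI and 23.2 in sham, and another over exon 34 with 20.7 and 36.7 (-0.83). Of the 16 Celsr peaks in CCI 4 had a log10 FDR of -10 or lower, and of the 15 in sham 8 did.

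Protocadherins held the strongest peaks of the superfamily. The highest fold enrichments over both lists were those of Pcdh15 (136 in sham), Pcdh7 (127 and 111 in CCI, in overlapping peaks), Pcdh17 (111 in CCI) and Pcdh1 (69.8 in CCI). Among the 45 pairs of the class 4 were at least 2-fold higher in CCI (8.89%) and 3 at least 2-fold lower (6.67%), with a median log2 ratio of -0.01. Over all pairs the shares were 8.59% and 7.25%.

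In Pcdh7 the lists divided the same region differently. Around its coding start the sham list held a single peak of 3595 exonic bases with 68.6 and a second of 1763 bases, under another transcript, with 52.3. Over the same stretch the CCI list held 6 peaks, from 2.32 to 127, at 3 places that were each listed under 2 transcripts. The pairing set a CCI peak of 630 bases (127) against the shorter sham peak, a log2 ratio of 1.28, and a CCI peak of 2338 bases (24.4) against the longer, a log2 ratio of -1.49. The sham peaks of these pairs overlap on the genome and the log2 ratios have opposite signs, so neither gives a direction for the region. At the Pcdh7 transcript start shown above, the peaks were of like size, 270 and 240 bases, with 16.1 in CCI and 7.14 in sham (1.17). A further CCI peak over the same sham peak had 8.08 (0.18). A further sham peak of 61 bases over the same CCI peak had 3.59 (2.17). These further peaks of the lists began at the same base. The CCI peak of 16.1 and the sham peak of 7.14 both lay over 4932441J04Rik, a gene that overlaps this start.

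Pcdh1 had the second lowest ratio, in its 3′-UTR (chromosome 18), with 3.91 over 510 bases in CCI and 30.4 over 1168 bases in sham (-2.96). A further CCI peak, of 1168 bases and 25.6, overlapped the same sham peak over 629 bases, and against it the log2 ratio was -0.25, so the large difference holds for the shorter CCI peak and not for the whole stretch. The other 5 Pcdh1 pairs lay between -0.03 and 0.81, among them the strongest, with 69.8 in CCI and 59.3 in sham, and an exon 2 peak with 23.2 in both. Over all members, 7 of the 28 pairs past 2-fold and 33 of the 121 others had exonic lengths at least 1.5 times apart, while over all pairs the shares were 32.5% past 2-fold and 17.5% within it. In 9 of the 28 another peak overlapped a peak of the pair, and in 6 of these (in Pcdh1, Pcdh7, Pcdh10 and Dchs1) a ratio taken with that peak was within 2-fold or of opposite sign.

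Pcdh17, of the delta protocadherins that organise synapses and axon bundles, had a 5′-UTR pair with 111 in CCI over 1410 bases and 33.4 in sham over 1021 bases (1.73). The log10 FDR was -165 and -51.6. Its 5 other pairs lay between -0.59 and 0.67. Pcdh10, another delta member, was higher in CCI in 6 of 7 pairs. All 3 of its 5′-UTR pairs were higher in CCI, from 0.52 to 0.79, and the exon peak that followed had 19.4 over 2219 bases in CCI and 8.46 over 1500 bases in sham (1.20). A second sham peak, of 990 bases and 14.4, lay mostly inside the same CCI peak, and with it the log2 ratio was 0.43. Its strongest 3′-UTR pair, with 33.1 in CCI and 17.8 in sham, lay over 1700027H10Rik, a gene that overlaps the end of the Pcdh10 span.

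Pcdh15, the partner of Cdh23 in the tip link, was lower in CCI in all 3 pairs. The strongest, annotated to the 3′-UTR (chr10:74631236-74631865 in CCI), had 59.2 against 136 (-1.20), and the others had 24.0 against 26.7 and 7.56 against 7.79. Pcdh9 was nearly level, with log2 ratios of its 6 pairs from -0.52 to 0.15. Pcdh19, the gene of an X-linked epilepsy, had 3 of 4 pairs lower in CCI, from -0.88 to 0.84 overall. Pcdh8, which neurons induce on activity, was lower in all 3, from -0.56 to -0.01. Pcdh18 and Pcdh20 had no pair past 2-fold, with log2 ratios from -0.18 to 0.59.

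**Figure D5:**
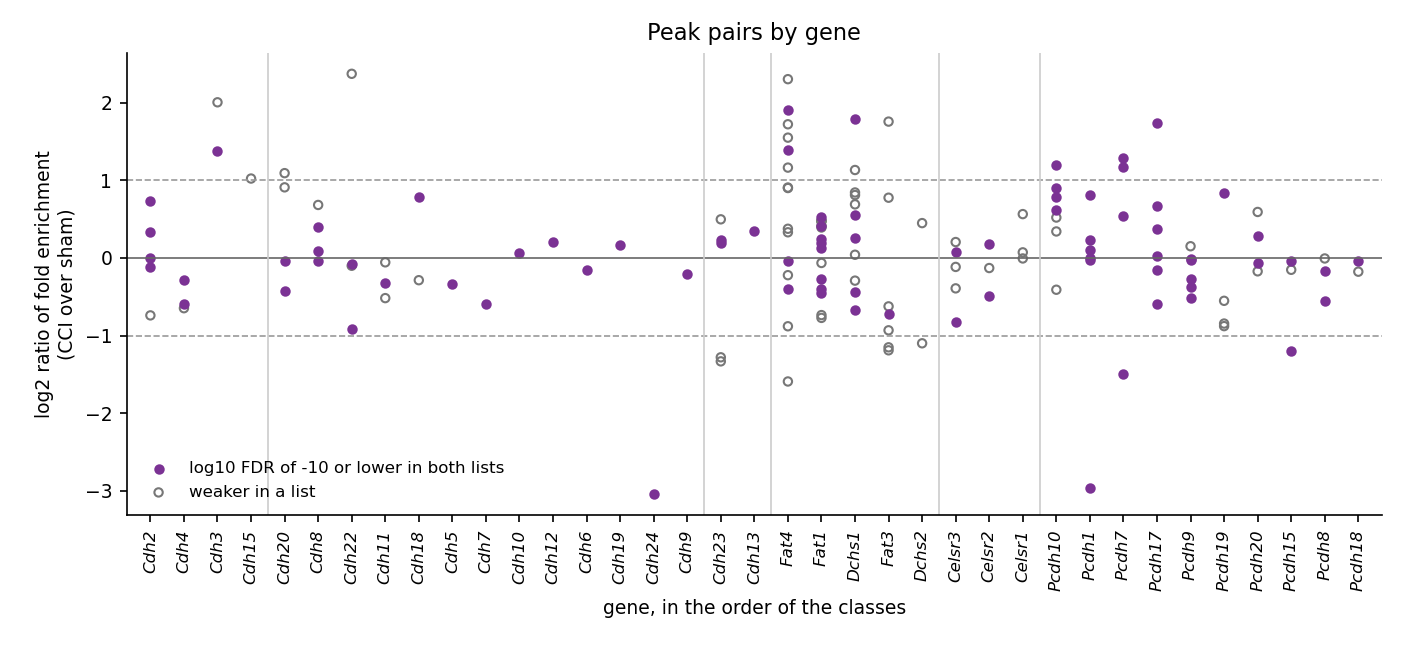
Log2 ratio of fold enrichment (CCI over sham, vertical axis) of each member pair, by gene in the order of the classes, with dashed lines at a 2-fold difference. Filled points have a log10 FDR of -10 or lower in both lists. Genes with many pairs, such as Fat4 and Dchs1, have points on both sides of 0.

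Of the 23 members with at least 3 pairs, none had all pairs higher in CCI, against 10.4% of the 3926 genes of the lists with at least 3 pairs. All pairs were lower in 4 members (Cdh4, Cdh11, Pcdh8 and Pcdh15), against 8.10% of such genes. Each of these 4 members had 3 pairs, the fewest counted. The number of pairs per gene was not matched between members and all genes.

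Peaks found in 1 list only were mostly weak. Of the 184 CCI member peaks 162 (88.0%, 82.6 to 92.0%) shared at least 1 exonic base with a sham peak, and 22 did not, beside 12.3% of all CCI peaks without a partner. Of the 195 sham member peaks 162 (83.1%, 77.2 to 87.7%) had a CCI partner and 33 did not (16.9%), beside 16.1% of all sham peaks. Both shares are near those of genes at large. Among peaks with a log10 FDR of -10 or lower, 97 of 98 in CCI and 105 of 106 in sham had a partner, beside 1.30% of all such CCI peaks and 1.56% of all such sham peaks without one. The exceptions were the Cdh5 and Fat4 peaks given above.

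No member had peaks in CCI only, and 2 of the 40 members in sham (Pcdh11x and Pcdh12) had them in sham only, beside 5.21% of all genes of the CCI list and 8.88% of all genes of the sham list. The X-linked Pcdh11x had 1 sham peak, in its 3′-UTR, with a fold enrichment of 3.02 (log10 FDR -2.98). Pcdh12, an endothelial protocadherin, had 2 sham peaks in exon 1 of 4, with 15.1 and 16.3 and log10 FDR of -2.71 and -3.01, both over the span of another gene, Rnf14. The values 15.1 and -2.71 stood together in 154 sham peaks and 16.3 and -3.01 in 145. Of the 89 sham member peaks with a log10 FDR above -10, 32 had no CCI partner, beside 39.2% of all sham peaks that weak.

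The authors' table of peaks that differed between the groups held 17 rows in 11 member genes of its 4812 rows. Its statistics are the authors' comparison and were not used here.

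The other genes of these pathways were read for context. The catenins and junction partners comprised 16 genes, all with a peak, and their 53 pairs had a median log2 ratio of -0.03, with 3 at least 2-fold higher and 1 at least 2-fold lower. Nectin1, an adhesion molecule of adherens junctions, gave 2 of the 3, and the other was Ctnnd1 (p120-catenin), with 685 in CCI and 259 in sham at its 5′-UTR. Ctnnb1, or beta-catenin, had 1 pair at -0.31. The 3 pairs of Mmp24 lay between -0.60 and 0.08. Its 5 CCI and 4 sham peaks were not all paired, and the unpaired ones have no ratio. The paper reported a loss of m6A sites in the Mmp24 3′-UTR after CCI. It also reported less Mmp24 RNA captured by an m6A antibody after spinal nerve ligation, another injury. The pairs of Adam10, which also cuts N-cadherin, lay between -0.10 and 0.05.

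Of 15 partners of Fat, Dachsous and Celsr in planar polarity and Hippo signalling, 14 had a peak and Fzd3 had none. Their 35 pairs had a median of -0.03, and 6 were at least 2-fold higher and none at least 2-fold lower. The 6 lay in Dvl3 (2 pairs), Fjx1, Vangl1, Vangl2 and Yap1. Fjx1 encodes the kinase that tunes Fat and Dachsous binding, and its highest pair had 36.0 in CCI and 15.1 in sham. The 3 pairs of Fjx1 ran from -0.39 to 1.25, with a median of 0.20. Vangl2, a membrane partner of Celsr, had 50.4 and 20.2 in 1 of its 2 pairs and a log2 ratio of -0.40 in the other. The WAVE complex and its regulators, which act with some protocadherins on actin, gave 12 pairs in 6 genes with a median of 0.65. At least 2-fold higher were 3, and none was at least 2-fold lower. The largest of these, in the 5′-UTR of Abi1, had 26.6 and 1.92. Over all 37 partner genes 12 of 100 pairs were at least 2-fold higher and 1 was at least 2-fold lower, beside the same 8.59% and 7.25% of all pairs.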

How the data were processed

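MeRIP-seq was performed on poly(A) RNA of spinal cord, with 1 IP and 1 input library in each of the CCI and sham groups. The paper's methods name Cutadapt, bowtie, MACS2 and ChIPseeker, whereas the submitters' processing notes list fastp, HISAT2, HOMER and ChIPseeker with GRCm38. No versions are given in the sources used here, and the columns are those of exomePeak output.

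The 3 deposited tables hold peaks. Fold enrichment in the deposited lists is the authors' ratio of IP over input, and the log10 FDR, as deposited by the authors, was handled as a score, since some values are minus infinity. The deposited table of differential peaks also holds the authors' log2 fold changes, p-values and FDR of CCI against sham, of which none was used, so only its rows were counted. The tables give no counts, so the depth per sample is unknown and a fold enrichment carries no interval.

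Members were found by gene name. The members, gene lists and thresholds were chosen with earlier results of these data known. Every member is accounted for, and some genes of the other lists are counted but not reported individually here. Full values were given for Cdh2, the 5 members with the most peaks, the 5 largest ratios in each direction, the 5 highest fold enrichments and members in 1 list only, while others were named after their values were seen. Peaks overlapped with at least 1 shared exonic base, and pairs were reciprocal best partners by shared over joint bases. A 2-fold difference is a log2 ratio of at least 1. Wilson intervals (95%) cover counting error only. Overlap with other genes used RefSeq spans (GRCm38.p6) of the same assembly, and transcript starts came from the RefSeq promoter table. Alternatives covered overlap, FDR, fold enrichment, thresholds and unit of counting. Pairing was tested on simulated data. The work was done in Python 3.11.15 with pandas 2.3.3, numpy 2.4.6, matplotlib 3.10.9 and scipy 1.17.1.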

Additional observations from a re-analysis of the deposited data

How the results depend on the processing

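No paired analysis was possible because a lone library of each kind stands behind either group and nothing here comes from a test across samples. Alternatives gave 55 values, of which 36 stayed within the interval of counting error, within 1.5 times the count, within 0.1 on the log2 scale or within 1.1 times the median, and 19 moved further. Settings chosen after seeing the data were the FDR of -10, leaving out the Fat and Dchs genes or the peaks over another gene, and each setting for the exon share. The cause of a move was not tested beyond what a setting's own construction shows.

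The counts of pairs past the threshold followed it. From 18 higher and 10 lower, a log2 ratio of at least 0.5 gave 40 and 30, one of at least 1.5 gave 9 and 3, and a log10 FDR of -10 or lower in both lists gave 8 and 4. The shares of member peaks with a partner, 88.0% in CCI and 83.1% in sham, were 73.9% and 70.8% with an overlap of 50% of both peaks, and 99.0% and 99.1% for peaks with a log10 FDR of -10 or lower. The exon share was 39.2% in CCI and 35.9% in sham with each gene and region counted once, and 39.8% and 35.4% without the Fat and Dchs genes. The 3′-UTR share was 39.0% and 41.5% without those genes, and in sham 41.0% with each gene and region counted once. The median fold enrichment of the strongest peak of each gene was 17.9 in CCI and 18.4 in sham. With 1 library per group, no depth and borders called separately in each list, the error of a single ratio is unknown, and ratios of weak or differently cut peaks are the least certain.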
